A study of Homo sapiens with 114 samples.

Results

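Claudins are the membrane proteins that close, or open in a selective way, the space between neighbouring epithelial cells. This account follows 8 of them, CLDN1, CLDN2, CLDN3, CLDN4, CLDN7, CLDN10, CLDN12 and CLDN16, in cultures of a human kidney cell line given 9 compounds. Members were taken by gene symbol: 12 of the array's 54675 probe sets were paired with 1 of these symbols alone, and the 8 genes were 8 of the 19775 genes that the array measured through single-gene probe sets. Values are the deposited log2 expression values, and a value under log2 4 was read as background.

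Tight junctions of the nephron differ from segment to segment because their claudins differ. CLDN2 forms a pore for small cations and water and is the typical leaky claudin of the proximal tubule, and CLDN10 has splice forms that pass either cations or anions. CLDN16, with CLDN19, sets the passage of magnesium and calcium in the thick ascending limb. CLDN12 has been linked to calcium passage. CLDN1, CLDN3, CLDN4 and CLDN7 are mostly counted as tightening claudins, and CLDN4 and CLDN7 are best known in the distal nephron and collecting duct.

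HK-2 is an immortalized line of human renal proximal tubular epithelial cells, so every group stands for 1 line in culture and not for kidney tissue. The labels name 26 treated and 12 control groups, each with 3 biological replicates on 1 array apiece. Cultures with CsA, Fk, Ra, CdCl or Di were taken at 12 and 48 h, with no dose stated. Those with Aa, Nnm or Kbr were taken at 24 and 48 h, and those with Ota at 24 and 72 h; each of these 4 had 2 dose groups, labelled high and low. The names are printed as the labels spell them, and no concentration is given for any of them. Controls received the vehicle and fall into 6 families: CsA, Aa and Ota have their own, Nnm shares controls with Kbr, Fk with Ra, and CdCl with Di. All cultures were treated near confluence in a defined medium with EGF, hydrocortisone, insulin, transferrin and selenite. The study set out to find expression signatures of toxicity in these cells. The labels do not say whether replicates came from separate passages or days, so a p-value here measures the spread between these arrays. All CsA-family arrays, treated and control, carry the label lab 3, and no other family names a laboratory, so the CsA family and that label cannot be told apart; no comparison crosses families.

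All 5 epithelial markers checked (KRT8, KRT18, KRT19, EPCAM and CDH1) were above background in every control group. Of 12 proximal tubule markers, 2 (DPP4 and PAX8) were above background in all controls and 10 were below it, LRP2, CUBN, AQP1 and SLC34A1 among them. None of 5 thick ascending limb and distal tubule markers and 1 of 6 collecting duct markers, AQP3, passed. Neither did any of 4 endothelial and 4 leukocyte markers, while 3 of 6 fibroblast markers did. The array values cannot tell fewer cells of a kind from less RNA per cell. No 2 arrays held identical values. The Nnm arrays numbered 2 and the CsA-family arrays numbered 3 stood apart from their groups in the claudin values, as did the Fk 12 h array numbered 3. Calls against controls that changed when they were left out are given with the gene. The control arrays of Aa and those of Nnm and Kbr with the same number and time correlated at 0.9981 to 0.9987 over all genes, against 0.9953 to 0.9971 for different numbers, so these cultures may be related. The 2 families were never combined in the main comparisons.

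The members lie on 5 chromosomes (GRCh38.p14, RefSeq). CLDN1, at chr3:190305707-190322446, lies inside the span of CLDN16, chr3:190290361-190412138, on the opposite strand. CLDN3 (chr7:73768997-73770270) and CLDN4 (chr7:73830996-73832690) are neighbours 60726 bases apart, and CLDN12 (chr7:90403461-90415954) lies on the same chromosome. CLDN2 is at chrX:106900164-106930861. The 250 bases before the RefSeq start are shown for the claudin with the widest changes (CLDN2), for the one that was most often lower (CLDN3) and for the pair that rose together with CdCl and Di (CLDN4 and CLDN12). The regions are chrX:106899914-106900163 on the plus strand, chr7:73770271-73770520 on the minus strand, chr7:73830746-73830995 on the plus strand and chr7:90403211-90403460 on the plus strand, each written 5′ to 3′ with motif matches in capitals.
CLDN2: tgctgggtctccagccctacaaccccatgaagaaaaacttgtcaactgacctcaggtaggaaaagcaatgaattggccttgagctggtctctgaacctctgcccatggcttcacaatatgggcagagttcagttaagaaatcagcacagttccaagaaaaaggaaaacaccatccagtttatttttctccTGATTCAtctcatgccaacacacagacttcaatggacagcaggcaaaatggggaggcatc
CLDN3: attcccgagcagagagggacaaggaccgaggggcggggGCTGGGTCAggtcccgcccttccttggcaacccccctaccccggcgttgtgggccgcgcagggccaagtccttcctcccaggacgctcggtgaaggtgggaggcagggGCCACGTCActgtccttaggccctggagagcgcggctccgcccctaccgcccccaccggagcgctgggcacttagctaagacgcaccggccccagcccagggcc
CLDN4: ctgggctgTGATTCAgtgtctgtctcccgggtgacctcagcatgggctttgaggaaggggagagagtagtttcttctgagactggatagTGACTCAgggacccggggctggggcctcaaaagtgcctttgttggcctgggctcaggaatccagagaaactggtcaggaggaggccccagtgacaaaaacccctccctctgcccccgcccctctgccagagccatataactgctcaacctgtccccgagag
CLDN12: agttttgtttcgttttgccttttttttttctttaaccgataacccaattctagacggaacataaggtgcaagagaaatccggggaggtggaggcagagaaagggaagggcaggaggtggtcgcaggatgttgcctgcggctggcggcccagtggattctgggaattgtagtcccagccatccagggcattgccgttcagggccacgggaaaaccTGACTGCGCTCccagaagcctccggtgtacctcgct

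Motifs of 4 kinds were searched on both strands of the windows from 250 bases before to 50 bases after the start: the E-box CAGGTG bound by Snail-type factors, the AP-1 site TGANTCA, the antioxidant response core TGACNNNGC, and the metal response core TGCACNC or TGCGCNC. Bases are counted from 1 at the 5′ end of a window. CLDN2 has an AP-1 match at bases 191 to 197, and its second RefSeq window has an antioxidant core match. CLDN4 has 2 AP-1 matches, at bases 9 to 15 and 90 to 96. CLDN3 has 2 antioxidant core matches, at bases 39 to 47 and 147 to 155, and an E-box at bases 287 to 292, after the printed stretch. In CLDN12 an antioxidant core match at bases 215 to 223 overlaps a metal response core match at bases 219 to 225. Among 35116 RefSeq promoter windows, 20.6% hold the E-box, 7.7% the AP-1 site, 13.3% the antioxidant core and 29.6% the metal core. CLDN16 has an AP-1 match at bases 5 to 11, and its second RefSeq window has an E-box at bases 271 to 276. The CLDN1 window has no match of the 4 kinds. These are matches of letters only, and no binding was measured.

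CLDN7 and CLDN10 were at background on every array, at 2.00 to 2.38 and 2.20 to 3.05, and were not tested. The other 6 were measured in every family. Over the arrays, CLDN1 ran from 11.74 to 14.96, CLDN2 from 3.14 to 11.22, CLDN3 from 4.38 to 7.42, CLDN4 from 6.67 to 8.94, CLDN12 from 8.43 to 10.87 and CLDN16 from 5.66 to 11.87. CLDN2 thus covered the widest range, and 4 treated arrays but no control array fell below the background mark. Levels of different genes rest on different probes and are not compared here. A second probe set of CLDN1 and one of CLDN3 followed the first over the 38 group means (r = 0.92 and 0.91, a description across groups that share normalization and controls).

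**Figure D1:**
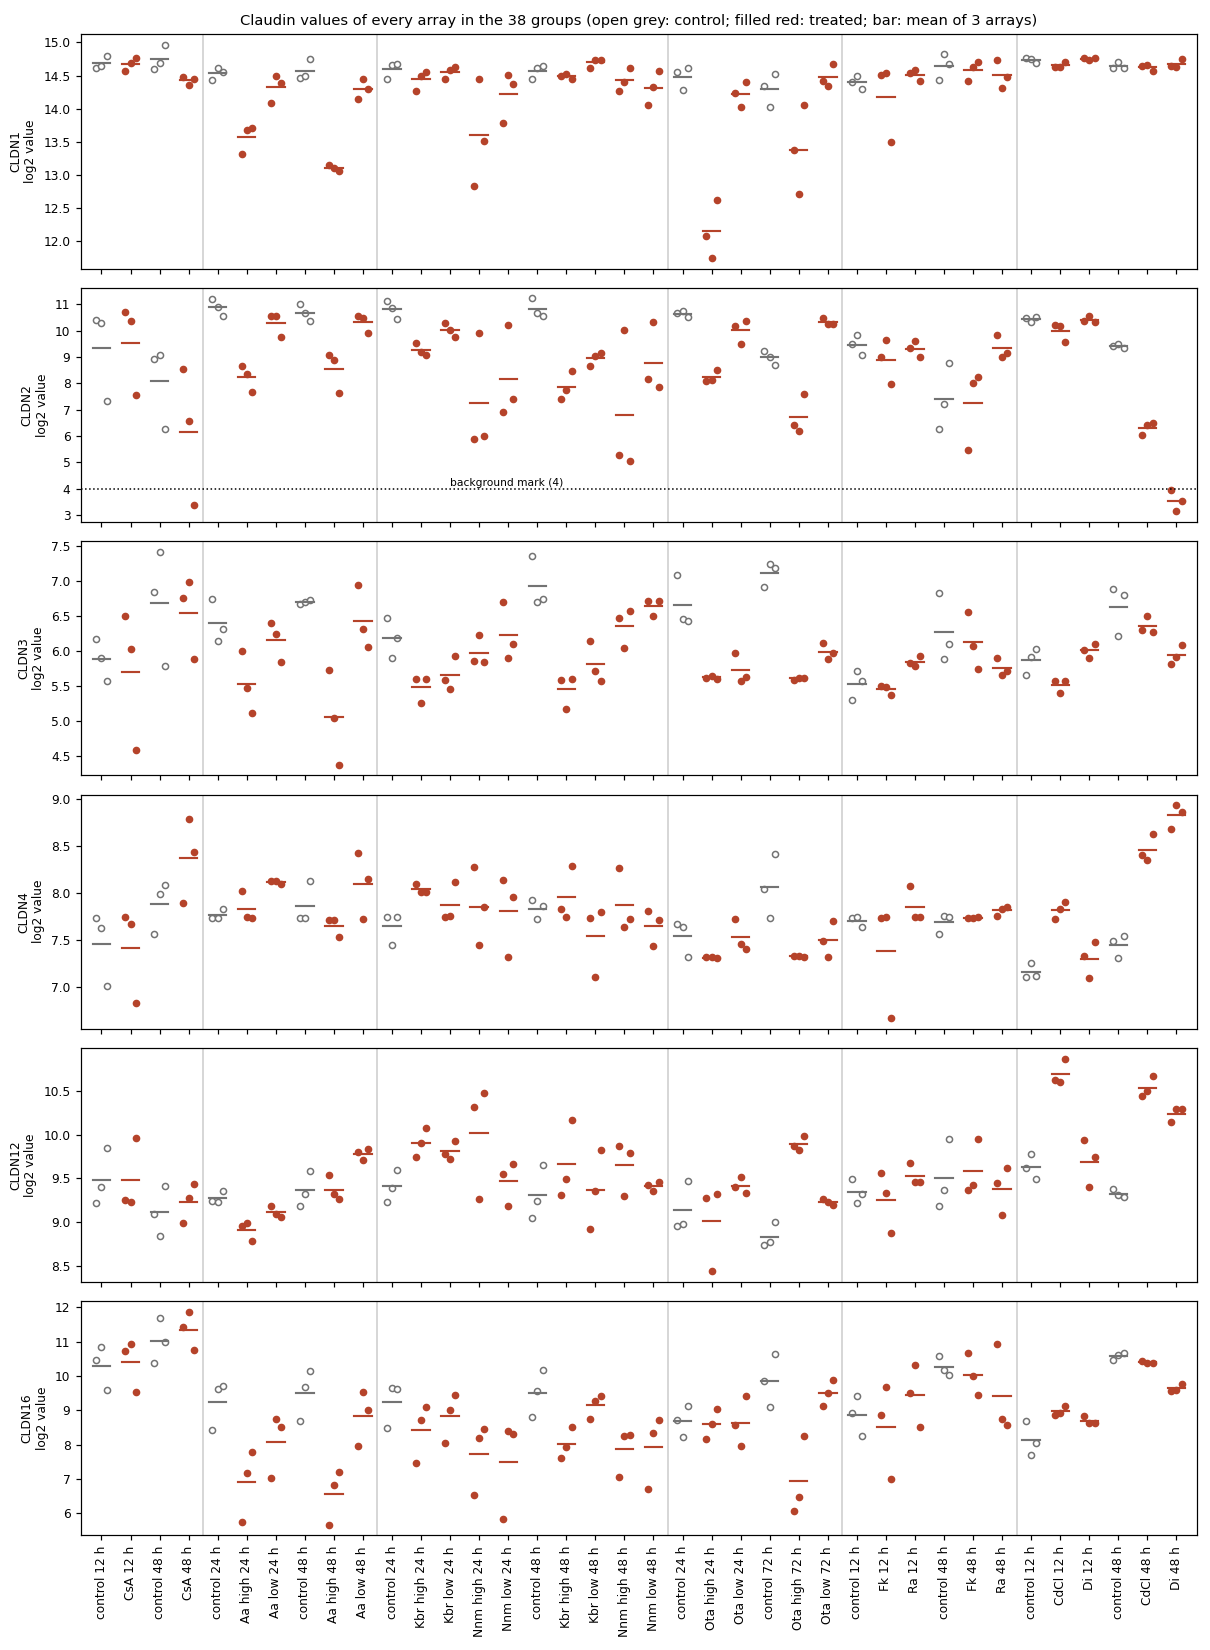
Log2 expression of the 6 measured claudins on every array, 3 points per group for 38 groups in families, with control and treated arrays in different colours and the background mark at 4 for CLDN2. The 3 Di 48 h points of CLDN2, at 3.94, 3.14 and 3.54, lie under the mark.

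Each treated group was compared with its control of the same time by limma, fitted over all genes of the control family, and a gene was called at an adjusted p under 0.05. Of 156 claudin values (6 genes in 26 comparisons), 41 were called, 10 higher and 31 lower, and 27 of the 41 were at least 2-fold. Calls fell in 15 comparisons. CLDN2 was called in 10 (1 higher, 9 lower), CLDN3 in 10 (all lower), CLDN12 in 6 (5 higher, 1 lower), CLDN1 in 5 (all lower), CLDN4 in 5 (3 higher, 2 lower) and CLDN16 in 5 (1 higher, 4 lower). Comparisons that share controls are not independent of one another. Nor are the 2 doses of a compound, which share their control too.

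These counts have to be read against the share of all tested genes that was called. With high-dose Aa, 5 of 6 claudins were lower at 24 h, where 49.9% of genes were called (23.9% lower), and 4 of 6 at 48 h, where 64.3% were called (34.5% lower). The median claudin change at 48 h was -1.56, against -0.0394 over all genes. Low-dose Aa gave 0 at 24 h (23.2% of genes) and 1 higher at 48 h (37% of genes, 17.7% higher). With high-dose Ota, 3 of 6 were lower at 24 h, against 65% of all genes called and 43.6% lower. At 72 h all 6 measured claudins were called, against 63.2% of genes: 5 were lower, where 37.9% of genes were, and 1 was higher, where 25.3% were. The medians there were -1.21 for claudins and -0.15 for all genes. Low-dose Ota gave 1 lower at 24 h (13.7% of genes, 9.99% lower). At 72 h it gave 1 higher and 2 lower (16% of genes, 9.01% higher and 7.02% lower).

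CdCl gave 3 of 6 higher at 12 h (48.7% of genes, 14.5% higher), and 2 higher and 1 lower at 48 h (46.4% of genes, 22.9% higher and 23.5% lower). Di gave 0 at 12 h (11.8%) and 5 of 6 at 48 h (47.4% of genes), 2 higher (21.4%) and 3 lower (25.9%). High-dose Kbr gave 1 lower at 24 h (21.6% of genes, 13.4% lower) and 2 lower at 48 h (51.1%, 28.9% lower). Low-dose Kbr gave 0 at 24 h (1.36%) and 1 lower at 48 h (29.4%, 14.3% lower). High-dose Nnm gave 2 lower at 24 h (35.9%, 18.4% lower) and 1 lower at 48 h (27.7%, 12.3% lower), and low-dose Nnm 0 at both times (18.5% and 14.1%). In the Kbr, Nnm and CdCl comparisons the share of claudins called in either direction was close to that of all genes or lower. The same held for high-dose Aa at 48 h (66.7% against 64.3%) and low-dose Aa (0% against 23.2% at 24 h, 16.7% against 37% at 48 h). It also held for Ota at 24 h (high dose 50% against 65%, low dose 16.7% against 13.7%) and Di at 12 h (0% against 11.8%). Such a count is no result about claudins as a group. By direction, the 3 calls with CdCl at 12 h were all higher, where 14.5% of genes were.

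No claudin was called by limma with CsA, Fk or Ra. At an unadjusted p under 0.05, 1 of 12 values would pass with CsA, 0 of 12 with Fk and 2 of 12 with Ra. Few other genes passed with CsA (0% and 0.00925% at 12 and 48 h), with Fk (0.00918% and 0%) or with Ra at 12 h (0.0367%). With Ra at 48 h, by contrast, 9.33% of genes passed (1.87% higher and 7.46% lower).

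**Figure D2:**
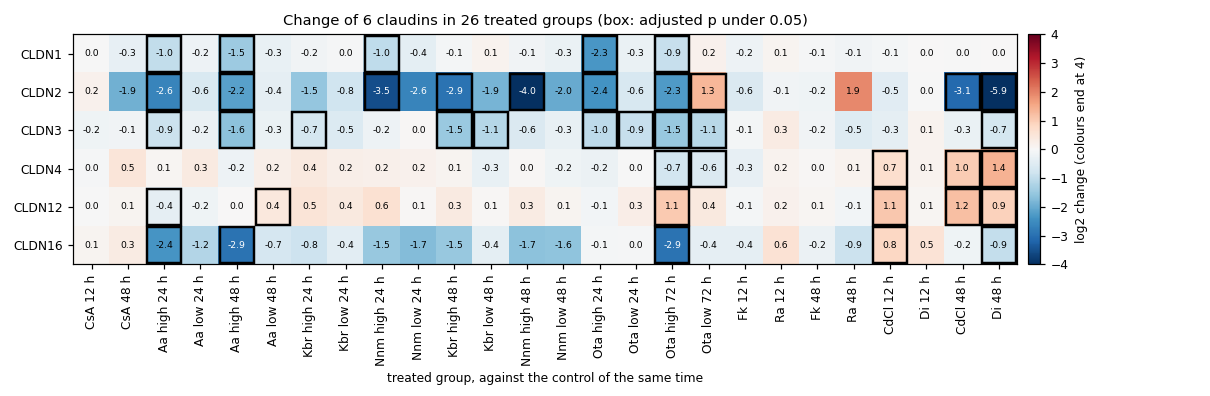
Heat map of the log2 difference from the control of the same time for 6 claudins (rows) in 26 treated groups (columns); a box marks an adjusted p under 0.05. Lower values gather in the CLDN2, CLDN3 and CLDN16 rows, down to a fitted -5.88 for CLDN2 with Di at 48 h, where the level was under the mark, and the CLDN4 and CLDN12 rows hold 8 of the 10 higher calls.

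CLDN2, the cation and water pore, had the largest changes. It was lower at both times with high-dose Aa, Nnm and Ota, and at 48 h with high-dose Kbr, CdCl and Di. The treated arrays lay below all controls in 16 of 26 comparisons and above them in 2. With Di at 48 h the arrays read 3.94, 3.14 and 3.54, against 9.42, 9.50 and 9.35 in the controls. All 3 treated arrays were below the background mark. The fitted difference was -5.88 ± 0.19 (SE, n = 3 per group, adjusted p = 5.034e-12), and with the treated level set to the mark CLDN2 was at least 42.9-fold lower.

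CdCl shared those 48 h controls, and its arrays read 6.03, 6.40 and 6.47. They lay below the controls and above the Di arrays, with a difference from control of -3.12 ± 0.19 (SE, n = 3 per group, adjusted p = 6.796e-09). At 12 h the change was -0.45 with CdCl (adjusted p = 0.0628) and -0.02 with Di, and neither was called. The change between the times was itself different from 0, by -2.67 ± 0.27 with CdCl (SE). With Di, whose 48 h level was set to the mark, it was -5.41 or lower.

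With high-dose Aa, CLDN2 read 8.67, 8.36 and 7.67 at 24 h, against 11.20, 10.91 and 10.54 in the controls. At 48 h it read 9.09, 8.86 and 7.62, against 11.01, 10.66 and 10.38. Neither pair of groups overlapped, and the differences were -2.65 ± 0.37 and -2.16 ± 0.37 (SE, adjusted p = 2.945e-05 and 0.0001023). In both the treated and the control group the array numbered 1 was the highest and that numbered 3 the lowest. High-dose Ota gave 8.10, 8.14 and 8.50 at 24 h, against 10.66, 10.73 and 10.50. It gave 6.41, 6.18 and 7.58 at 72 h, against 9.24, 9.00 and 8.71. Again there was no overlap, and the differences were -2.38 ± 0.30 and -2.26 ± 0.30 (SE, adjusted p = 4.27e-06 and 7.947e-06).

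Low-dose Ota went the other way at 72 h. CLDN2 read 10.46, 10.26 and 10.24, above all 3 controls, a difference of 1.34 ± 0.30 (SE, n = 3 per group, adjusted p = 0.006437). At 24 h the low dose gave -0.63 and was not called. The controls had themselves fallen by 1.65 between 24 and 72 h, and the low-dose arrays at 72 h lay just under the 24 h controls. In a single fit of all arrays the low-dose call was lost (adjusted p = 0.315).

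With Nnm the 3 arrays disagreed. High-dose CLDN2 read 5.87, 9.91 and 6.00 at 24 h, against 11.13, 10.84 and 10.44, and 5.28, 10.01 and 5.05 at 48 h, against 11.22, 10.67 and 10.55. The array numbered 2 lay just under the controls while the other 2 were far below them, and the low dose showed the same split (6.91, 10.21 and 7.39 at 24 h; 8.16, 10.34 and 7.84 at 48 h). The 24 h difference was -3.55 ± 1.05 (SE, adjusted p = 0.01225). It was -2.86 without the array numbered 1 (adjusted p = 0.0856) and -2.92 without that numbered 3 (adjusted p = 0.0761). The 48 h difference of -4.03 likewise became -3.28 and -3.16 (adjusted p = 0.0616 and 0.0612). With the 4 Nnm arrays of number 2 left out, a choice made after the values were seen, the high-dose differences were -4.87 and -5.65, and the low-dose ones were -3.66 and -2.81 at 24 and 48 h, with adjusted p of 1.75e-08 and 5.36e-07.

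Kbr, which shares controls with Nnm, gave more even arrays. At the high dose CLDN2 read 9.55, 9.19 and 9.07 at 24 h and 7.40, 7.74 and 8.46 at 48 h, below all controls at both times. The 48 h difference was -2.95 ± 1.05 (SE, adjusted p = 0.02302) and the 24 h one, -1.54, was not called. The SE is set by the whole family, the uneven Nnm arrays included. In a fit of only the arrays compared, high-dose Kbr at 24 h and low-dose Kbr at 48 h (8.65, 9.03 and 9.15, a difference of -1.87) passed at adjusted p of 0.00422 and 0.00305. They also passed in the family fit with the Nnm arrays of number 2 left out (adjusted p = 0.000124 and 1.28e-05). The high-dose 48 h call was lost without the control array numbered 1, or without the Kbr array numbered 1 or 2 (adjusted p = 0.0693, 0.0701 and 0.0562).

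CLDN2 in the CsA family differed by array number. The arrays numbered 3 were the lowest of each group, at 7.55 and 3.37 with CsA at 12 and 48 h and at 7.34 and 6.25 in the controls. The CsA change at 48 h was -1.93, and -1.45 without those arrays, with neither called. With Ra at 48 h CLDN2 read 9.83, 8.98 and 9.17, above all 3 controls at 6.25, 7.19 and 8.78. That difference of 1.92 missed the threshold (adjusted p = 0.07858). It passed without the control array numbered 3 (2.61, adjusted p = 0.0226) and after quantile normalization (2.11, adjusted p = 0.044). The Ra 48 h array numbered 2 had the lowest upper quartile of values of all arrays, 6.091. The Ra 48 h arrays numbered 1 and 3 had 7.019 and 6.892.

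CLDN16, the thick ascending limb claudin, was well above background in the controls, where the 5 markers of that segment and the distal tubule were below it. In the Ota family 1 of those 5 passed the filter on low values, and it was higher with the high dose at 24 h, where CLDN16 was not called. It was lower with high-dose Aa, high-dose Ota at 72 h and Di at 48 h, and higher with CdCl at 12 h. High-dose Aa gave 5.73, 7.16 and 7.79 at 24 h, against 8.42, 9.62 and 9.69, and 5.66, 6.83 and 7.20 at 48 h, against 8.69, 9.67 and 10.16. The groups did not overlap, and the differences were -2.35 ± 0.63 and -2.95 ± 0.63 (SE, adjusted p = 0.00563 and 0.0007398). High-dose Ota gave 6.06, 6.47 and 8.25 at 72 h, against 9.87, 9.10 and 10.64, a difference of -2.94 ± 0.52 (SE, adjusted p = 0.0001405). At 24 h the same dose gave -0.09, and the change between the times was -2.86 ± 0.74 (SE, adjusted p = 0.004243).

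With CdCl at 12 h CLDN16 read 8.87, 8.91 and 9.12, just above controls at 8.69, 7.70 and 8.04 (0.82 ± 0.18, SE, adjusted p = 0.001309). With Di at 48 h it read 9.56, 9.60 and 9.75, below controls at 10.46, 10.60 and 10.67 (-0.94 ± 0.18, SE, adjusted p = 0.0004075). Both calls were lost in a single fit of all arrays (adjusted p = 0.335 and 0.267). The 12 and 48 h responses differed by -0.998 with CdCl and by -1.49 with Di. CLDN16 rose by 2.43 between 12 and 48 h in these controls, so both compounds at 48 h are compared with a higher base.

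CLDN16 followed the replicate number closely in the Aa and the Nnm and Kbr families, where the array numbered 1 was the lowest of every group. With the number as a block, CLDN16 was lower in 8 further comparisons. With Nnm these were -1.52 and -1.74 at 24 h and -1.66 and -1.59 at 48 h for the high and low dose (block adjusted p = 0.000274, 0.000178, 0.000168 and 0.000422). With Kbr they were -0.82 and -1.51 for the high dose at 24 and 48 h (block adjusted p = 0.02685 and 9.1e-05), and with low-dose Aa -1.16 and -0.68 (block adjusted p = 0.000587 and 0.011). Without the block none of these passed. The same-numbered arrays deviated together in both families over all genes, so the block is a fitting alternative there. The share of all genes called with the block is not given here, so a gain in calls is no result about claudins as a group. With the block the claudin calls against controls went from 10 to 14 for Aa and from 7 to 16 for Nnm and Kbr, and none was lost. The other 5 gained were CLDN2 with low-dose Aa (-0.60, block adjusted p = 0.009096) and low-dose Nnm (-2.64, 0.02969) at 24 h, CLDN1 with low-dose Aa at 48 h (-0.29, 0.03172), CLDN12 with high-dose Nnm at 24 h (0.61, 0.01999) and CLDN3 with high-dose Nnm at 48 h (-0.57, 0.01383).

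**Figure D3:**
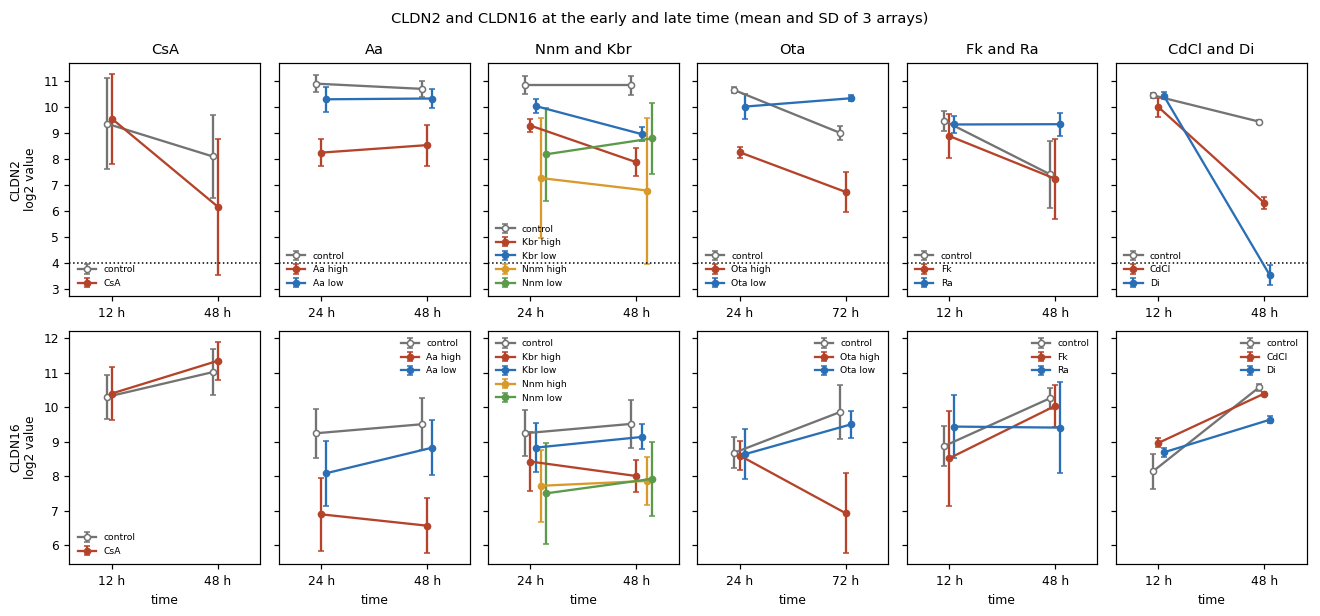
Mean log2 level (points) and SD over 3 arrays (bars) of CLDN2 and CLDN16 at the early and the late time, for controls (open grey points) and treated groups of each family, with the background mark dotted for CLDN2. CLDN2 in Di cultures goes from 10.42 at 12 h to 3.54 at 48 h while its controls go from 10.43 to 9.42, and CLDN16 rises in the same controls from 8.14 to 10.58.

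Among the tightening claudins, CLDN1 was lower with high-dose Aa, with high-dose Ota and with high-dose Nnm at 24 h. The largest change was with high-dose Ota at 24 h, with 12.07, 11.74 and 12.62 against 14.55, 14.28 and 14.62, a difference of -2.34 ± 0.28 (SE, n = 3 per group, adjusted p = 2.864e-06). At 72 h the same dose read 13.37, 12.70 and 14.06, against 14.34, 14.02 and 14.52. The ranges overlapped there, and the difference of -0.92 ± 0.28 (adjusted p = 0.00974) was -0.58 without the treated array numbered 2 (adjusted p = 0.0632). The change at 72 h was smaller than that at 24 h by 1.42 ± 0.40 (SE, adjusted p = 0.00724).

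High-dose Aa gave 13.31, 13.68 and 13.70 for CLDN1 at 24 h, against 14.43, 14.62 and 14.55. At 48 h it gave 13.15, 13.10 and 13.06, against 14.46, 14.50 and 14.75. All treated arrays were below all controls, by -0.97 ± 0.14 and -1.47 ± 0.14 (SE, adjusted p = 3.292e-05 and 2.977e-07). High-dose Nnm gave 12.83, 14.44 and 13.51 at 24 h, against 14.44, 14.66 and 14.68, a difference of -1.003 ± 0.25 (SE, adjusted p = 0.003775). There the array numbered 2 touched the control range, and with the Nnm arrays of number 2 left out the difference was -1.43 (adjusted p = 3.75e-06). In a fit of only the 6 arrays of this comparison, number 2 included, the call was lost (adjusted p = 0.138). Leaving out number 2 also gave calls for CLDN1 with low-dose Nnm at 24 h (-0.52, adjusted p = 0.0362) and CLDN12 with high-dose Nnm at 24 h (0.99, adjusted p = 0.00157). For CLDN16 it did so with low-dose Nnm at 24 h (-2.19, adjusted p = 0.0271) and high-dose Nnm at 48 h (-1.85, adjusted p = 0.0484).

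For CLDN1 the second probe set kept the sign in 21 of 26 comparisons and gave 5 lower calls. It also gave 2 higher calls that the first did not, 0.75 with CdCl at 12 h (adjusted p = 0.0002552) and 0.46 with Di at 12 h (adjusted p = 0.03312). The first probe set gave -0.08 and 0.02 there, so the 12 h direction of CLDN1 with CdCl depends on the probe set.

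CLDN3, also a barrier claudin, was lower in 10 comparisons, with Aa, Kbr, Ota and Di. It read 5.74, 5.05 and 4.38 with high-dose Aa at 48 h, against 6.67, 6.70 and 6.73, a difference of -1.65 ± 0.31 (SE, adjusted p = 0.0002836). With high-dose Ota at 72 h it read 5.59, 5.62 and 5.62, against 6.92, 7.24 and 7.19, a difference of -1.51 ± 0.17 (SE, adjusted p = 1.251e-06). With high-dose Kbr at 48 h it read 5.59, 5.18 and 5.61, against 7.36, 6.71 and 6.75, a difference of -1.48 ± 0.22 (SE, adjusted p = 9.144e-06). In each of the 3 comparisons the treated arrays lay below all controls.

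CLDN3 was also lower in 3 of the 8 low-dose comparisons. Low-dose Ota gave -0.93 at 24 h and -1.12 at 72 h (adjusted p = 0.001616 and 0.0003366), and low-dose Kbr gave -1.13 at 48 h (adjusted p = 0.0005947). Low-dose Aa (-0.24 and -0.26), low-dose Nnm (0.04 and -0.29) and low-dose Kbr at 24 h (-0.53) were not called. Smaller changes were called with high-dose Aa at 24 h (-0.87, adjusted p = 0.03078), high-dose Kbr at 24 h (-0.70, adjusted p = 0.02464) and Di at 48 h (-0.69, adjusted p = 0.001413). The Aa call was lost without the treated array numbered 2 or 3 or the control numbered 1 or 3 (adjusted p = 0.0722, 0.129, 0.12 and 0.0536). The Kbr call at 24 h was lost without the treated array numbered 2 or the control numbered 1 or 3 (adjusted p = 0.111, 0.138 and 0.0532). It was also lost after quantile normalization (adjusted p = 0.0853). The Di call was lost in 1 alternative (adjusted p = 0.0633). The Di means were 6.01 at 12 h and 5.94 at 48 h, while the control mean went from 5.867 to 6.635.

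The size of the CLDN3 change depended on the normalization and the probe set. High-dose Ota at 24 h gave 5.62, 5.65 and 5.61, against 7.09, 6.45 and 6.43, a difference of -1.03 (adjusted p = 5.644e-05) that shrank to -0.46 after quantile normalization (adjusted p = 0.026). In that comparison the median over all genes was -0.288 before and -0.0735 after it. On the 26 arrays where the second CLDN3 probe set was at background, the first read 4.38 to 5.93, median 5.59. Between 5.57 and 5.63 lay 17 arrays, the 3 of high-dose Ota at 72 h among them, and the cause of this was not tested. The second probe set gave 12 lower and 0 higher calls and the same sign in 23 of 26 comparisons. The 2 calls it added were CdCl at 48 h (-0.77, adjusted p = 0.0006181, against -0.28 with the first) and low-dose Aa at 48 h (-1.10, adjusted p = 0.03419, against -0.26). With high-dose Ota at 72 h its treated mean was 3.6, under the mark, and with that level set to the mark it was at least 5.65-fold lower. Both CLDN3 probe sets carry a suffix taken here as a mark of possible cross-hybridisation, as does the second CLDN1 probe set.

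Fibroblast markers moved in several of the cultures with claudin calls. All 3 that were above background fell with high-dose Kbr at 24 and 48 h and low-dose Kbr at 48 h, COL1A1 by -2.01, -2.71 and -2.04, in cultures where CLDN3 was lower. With Di at 48 h, where 5 claudins were called, DCN (-0.923) and LUM (-0.803) were lower. With high-dose Ota COL1A1 was lower at 24 h (-2.04) and LUM higher at 24 and 72 h (0.667 and 1.6). With low-dose Ota at 72 h LUM was higher (1.68), and with high-dose Nnm at 24 h COL1A1 was lower (-0.751). With CdCl at 48 h DCN was higher (0.334) and LUM lower (-0.916). Of 5 epithelial markers, 3 were lower with high-dose Aa at 24 and 48 h, high-dose Kbr at 48 h and Di at 48 h. With high-dose Aa and Di at 48 h 1 was higher. The 2 proximal tubule markers above background fell with high-dose Ota at 72 h and rose with high-dose Nnm and CdCl at 48 h. The part of these markers in the claudin values was not tested. The fibroblast list had a mean level of 5.20 to 6.45 over treated and 5.53 to 6.53 over control groups. High-dose Ota at 72 h and high-dose Aa at 48 h had a larger 3′ to 5′ difference of ACTB, a sign of RNA quality: 1.93 against 1.36 and 1.35 against 0.932. Its part in the claudin values was not tested.

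CLDN4, which tightens distal nephron junctions, rose with CdCl and Di. With CdCl it read 7.72, 7.83 and 7.91 at 12 h, against 7.10, 7.25 and 7.12, and 8.41, 8.35 and 8.63 at 48 h, against 7.49, 7.31 and 7.54. With Di at 48 h it read 8.68, 8.94 and 8.86. Treated arrays were above all controls in each, by 0.67 ± 0.11, 1.02 ± 0.11 and 1.38 ± 0.11 (SE, adjusted p = 0.0001708, 2.6e-06 and 7.82e-08). With Di at 12 h the change was 0.14 and not called, and the responses at the 2 times differed by 1.24 ± 0.16 (SE, adjusted p = 2.366e-05).

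CLDN4 was lower with Ota than in the controls at 72 h. The high dose gave 7.33, 7.33 and 7.32, against 8.05, 7.73 and 8.41, a difference of -0.74 ± 0.16 (SE, adjusted p = 0.0009385). The low dose gave 7.49, 7.32 and 7.70, a difference of -0.56 (adjusted p = 0.02734) that was lost in 7 alternatives. These include leaving out the control numbered 1 (adjusted p = 0.07) or 3 (-0.39, adjusted p = 0.151), or the treated array numbered 1 (adjusted p = 0.0845) or 2 (adjusted p = 0.107). Between 24 and 72 h the control mean went from 7.54 to 8.065. The high-dose mean went from 7.31 to 7.32 and the low-dose mean from 7.53 to 7.50. By limma the response at neither dose was called as different between the times (adjusted p = 0.07316 and 0.1816). CLDN4 values were also bunched, with 36 arrays between 7.70 and 7.76. The high-dose Ota arrays lay close together at another level, 7.316, 7.315 and 7.304 at 24 h and 7.329, 7.326 and 7.317 at 72 h (SD 0.006345 and 0.006633). The cause of this was not tested. A second CLDN4 probe set was at background on all arrays.

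CLDN12, linked to calcium passage, rose beside CLDN4 in the CdCl and Di cultures. CdCl gave 10.62, 10.60 and 10.87 at 12 h, against 9.61, 9.78 and 9.49, and 10.44, 10.50 and 10.67 at 48 h, against 9.38, 9.31 and 9.28. Di gave 10.14, 10.29 and 10.29 at 48 h. Every treated array was above every control, by 1.07 ± 0.12, 1.21 ± 0.12 and 0.92 ± 0.12 (SE, adjusted p = 7.457e-06, 1.578e-06 and 2.269e-05). Di at 12 h gave 0.07 and was not called, and its 48 h response was larger by 0.85 ± 0.18 (SE, adjusted p = 0.00173).

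CLDN12 was higher than in the controls with high-dose Ota at 72 h, where the other 5 claudins were lower. It read 9.87, 9.83 and 9.99, against 8.73, 8.76 and 9.00, a difference of 1.06 ± 0.20 (SE, adjusted p = 0.0002396). At 24 h the change was -0.12, and the 2 times differed by 1.19 ± 0.28 (SE, adjusted p = 0.002407). Aa gave small changes, 0.42 with the low dose at 48 h (adjusted p = 0.01005) and -0.36 with the high dose at 24 h (adjusted p = 0.0146). The first was lost in 3 alternatives, from an adjusted p of 0.0522 without the control array numbered 1 up to 0.142. The second was lost without the control or the treated array numbered 3 (adjusted p = 0.0552 and 0.0633).

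Members did not move as a block. Over the 26 changes the highest correlation between 2 members was 0.542, for CLDN3 and CLDN16, and the lowest was -0.387, for CLDN2 and CLDN4 (a description; comparisons of a family share controls). CLDN2 and CLDN3 were called together in 7 comparisons and in opposite directions in 1 of them. CLDN2 and CLDN4 were called together in 4 and in opposite directions in 3. CLDN4 and CLDN12 were called together in 4, in opposite directions with high-dose Ota at 72 h.

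The neighbours CLDN3 and CLDN4 went apart with Di at 48 h, -0.69 against 1.38. CLDN1 and CLDN16, which overlap in the genome, were both lower in 3 comparisons.

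The high dose was compared with the low dose directly for Aa, Nnm, Kbr and Ota. With Aa at 48 h all 6 measured claudins were lower at the high dose, where 44.8% of genes were called and 24.5% were lower: CLDN1 by -1.18, CLDN2 by -1.79, CLDN3 by -1.38, CLDN4 by -0.45, CLDN12 by -0.41 and CLDN16 by -2.27. No treated array of the high dose overlapped the low-dose arrays in any of the 6. The CLDN4 call was lost without the low-dose array numbered 1 (-0.29, adjusted p = 0.156) or 3 (adjusted p = 0.0748) or the high-dose array numbered 3 (adjusted p = 0.102). For CLDN4 and CLDN12 the high dose at 48 h was not called against the control (-0.21 and 0.01). The low dose lay above the control mean there, by 0.24 for CLDN4 (not called) and 0.42 for CLDN12 (called). At 24 h CLDN1 (-0.75) and CLDN2 (-2.05) were lower (26.4% of genes called, 9.79% lower). With the block CLDN3 (-0.63, block adjusted p = 0.02165) and CLDN16 (-1.19, block adjusted p = 0.000388) joined them.

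The largest dose difference with Ota was in CLDN2. At 72 h it was lower at the high than at the low dose by -3.60 ± 0.30 (SE, adjusted p = 1.104e-07), since the 2 doses lay on opposite sides of the control. CLDN1 (-1.10) and CLDN16 (-2.58) were lower and CLDN12 (0.67) was higher, so 4 of 6 were called against 57.8% of genes (37% lower and 20.9% higher). At 24 h CLDN1 (-2.07) and CLDN2 (-1.76) were lower (58.9% of genes called, 39.4% lower). The 2 doses of Nnm and of Kbr gave 0 claudin calls in limma, with 1 of 12 and 0 of 12 at an unadjusted p under 0.05. For Kbr 0.0544% and 8.03% of genes were called at 24 and 48 h, and for Nnm 0% at both. Leaving out the Nnm arrays numbered 2, a choice made after the values were seen, gave 5 calls among these 24 dose values. The share of all genes called in that fit is not given here. With the block CLDN16 was lower at the high dose of Kbr at 48 h (-1.14, block adjusted p = 0.0077).

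Compounds that share controls were set against each other in 8 comparisons, with p adjusted over all genes of each. The labels give no concentration, so the doses cannot be called matched, and no structural relation was used. CdCl and Di differed in 3 of 6 claudins at 12 h, where 41.1% of genes differed (15.2% higher and 25.9% lower with CdCl), and in 4 of 6 at 48 h, where 42.6% did (23.6% higher and 19% lower). At 12 h CLDN12 was higher with CdCl by 1.01 (95% interval 0.739 to 1.27) and CLDN4 by 0.52 (0.288 to 0.757), while CLDN3 was lower by -0.49 (-0.809 to -0.166). At 48 h the Di level of CLDN2 was under the mark, so CLDN2 was at least 4.93-fold higher with CdCl. CLDN16 was higher by 0.76 (0.39 to 1.14) and CLDN3 by 0.42 (0.0947 to 0.738), and CLDN4 was lower by -0.36 (-0.599 to -0.131).

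The CLDN3 and CLDN4 differences between CdCl and Di were less stable. At 48 h the CLDN3 one was lost after quantile normalization (adjusted p = 0.127) and without array 1 or 2 of either compound (adjusted p = 0.0605 and 0.125 for CdCl, 0.115 and 0.0847 for Di). The CLDN4 one was lost without array 2 of either (adjusted p = 0.0611 and 0.0631). At 12 h the CLDN3 one was lost without CdCl array 2 or Di array 3 (adjusted p = 0.0644 and 0.0612).

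Nnm and Kbr differed in 1 claudin in each of their 4 comparisons, where 42.6%, 32%, 56.7% and 42.8% of genes were called (high and low dose at 24 h, then at 48 h). In the direction of the claudin call these shares were 18.2% lower and 16.8%, 32.5% and 22.6% higher with Nnm. CLDN1 was lower with high-dose Nnm at 24 h by -0.85 (-1.36 to -0.338), a call lost without the Nnm array numbered 1 (-0.46, adjusted p = 0.0973). CLDN3 was higher with Nnm at the low dose at 24 h by 0.58 (0.122 to 1.04, adjusted p = 0.04852). That call was lost without the Nnm array numbered 1 (0.35, adjusted p = 0.294) or 3 (adjusted p = 0.0626), or the Kbr array numbered 1 (adjusted p = 0.118) or 2 (adjusted p = 0.161). At 48 h CLDN3 was higher by 0.91 (0.448 to 1.36) and 0.84 (0.379 to 1.29) at the high and low dose. For CLDN2 the intervals reached from -4.19 to 0.163 with the high dose at 24 h and from -2.34 to 2.02 with the low dose at 48 h, too wide to tell whether the compounds acted alike. With the Nnm arrays numbered 2 left out, 5 further values of these 4 comparisons passed. The share of all genes called in that fit is not given here. With the block CLDN16 was lower with Nnm than with Kbr at 24 h by -0.70 and -1.33 (high and low dose) and at 48 h by -1.22 (low dose), and CLDN3 higher at the high dose at 24 h by 0.49 (block adjusted p = 0.03936, 0.00069, 0.001006 and 0.02377).

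Fk and Ra gave 0 claudin calls against each other at 12 h (0% of genes) and at 48 h (7.39%). The largest difference was in CLDN2 at 48 h, -2.09 (unadjusted 95% interval -3.53 to -0.657, adjusted p = 0.06618). Without CLDN2 the intervals of the other claudins reached from -2.37 to 0.525 at 12 h and from -0.819 to 2.08 at 48 h. The Fk 12 h array numbered 3 was low in several members (13.49 for CLDN1, 6.67 for CLDN4 and 7.00 for CLDN16). Without it the 6 Fk differences from control at 12 h lay between -0.14 and 0.41 and those from Ra between -0.36 and 0.02, with 0 called by limma.

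Whether the response changed between the 2 times was tested as late minus early difference from control, in 13 comparisons, and 11 claudin values passed. With Di these were 5 of 6, CLDN2, CLDN3 and CLDN16 in the lower and CLDN4 and CLDN12 in the higher direction (33.6% of genes called, 16.2% lower and 17.5% higher). With CdCl they were CLDN2 and CLDN16, both lower (30.4% of genes, 9.34% lower). With high-dose Ota they were CLDN1 and CLDN12, higher, and CLDN16, lower (53.4% of genes, 32.7% higher and 20.6% lower), and with low-dose Ota CLDN2, higher (6.3% of genes, 4.77% higher). A higher value for CLDN1 with high-dose Ota means a smaller fall at 72 h than at 24 h.

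Control cultures were not constant over time. CLDN2 was lower at the late than at the early time in 5 of 6 control families, and CLDN3 and CLDN16 were higher in 6 of 6. The CLDN2 fall was called in the Ota controls (-1.65, adjusted p = 0.0006714), where 28.8% of genes were called (13.6% higher and 15.3% lower), and in the CdCl and Di controls (-1.01, adjusted p = 0.000465), where 48.9% were (19.7% higher and 29.3% lower). It was marginal in the Fk and Ra controls (-2.05, adjusted p = 0.04995, with 16% of genes called, 7.8% higher and 8.18% lower), and the call was lost without any of the arrays but the 48 h one numbered 3 (-1.47 and adjusted p = 0.227 without the 48 h array numbered 1). Of the other families the CsA, Aa and Nnm and Kbr controls had 13.5%, 1.25% and 0.598% of genes called and no claudin. With the block CLDN3 passed in the Nnm and Kbr controls (0.75, block adjusted p = 0.01238).

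CLDN3 was higher by 0.30 to 0.80 over the families, and was called in the CdCl and Di (0.77), Fk and Ra (0.75) and Ota (0.46) controls. The Fk and Ra and the Ota calls were lost under several alternatives and without any of 4 arrays each: without the Fk and Ra 48 h array numbered 1 the rise was 0.47 (adjusted p = 0.209), and without the Ota 24 h array numbered 3 it was 0.34 (adjusted p = 0.184). CLDN16 was higher by 0.26 to 2.43, and only the 2.43 in the CdCl and Di controls was called (adjusted p = 3.183e-08). CLDN4 rose by 0.52 in the Ota and by 0.29 in the CdCl and Di controls (adjusted p = 0.02431 and 0.03832). Both CLDN4 calls were lost when single control arrays were left out, for example to 0.35 without the Ota 72 h array numbered 3 (adjusted p = 0.138) and to 0.25 without the CdCl and Di 48 h array numbered 3 (adjusted p = 0.124). CLDN1 and CLDN12 gave no call over time.

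Other junction genes were read from lists. Of 24 tight junction partners in the table, 23 were tested in most families. With high-dose Aa 12 were lower and 1 higher at 24 h (all genes 23.9% lower and 26% higher), and 17 lower and 2 higher at 48 h (34.5% and 29.8%), with median changes of -0.563 and -0.709. High-dose Ota gave 13 lower and 2 higher at 24 h (all genes 43.6% and 21.4%) and 11 lower and 2 higher at 72 h (37.9% and 25.3%), with medians of -0.725 and -0.554. High-dose Kbr gave 9 lower at 24 h (all genes 13.4%) and 11 lower at 48 h (28.9%), and 0 higher at either. CdCl at 12 h gave 10 lower and 1 higher (all genes 34.3% and 14.5%, list median -0.302). At 48 h it gave 6 lower and 5 higher, shares like those of all genes (23.5% and 22.9%) and so no result about the list. Di at 48 h gave 8 lower and 4 higher (all genes 25.9% and 21.4%). The all-gene medians in these comparisons lay between -0.288 and 0.0101.

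**Figure D4:**
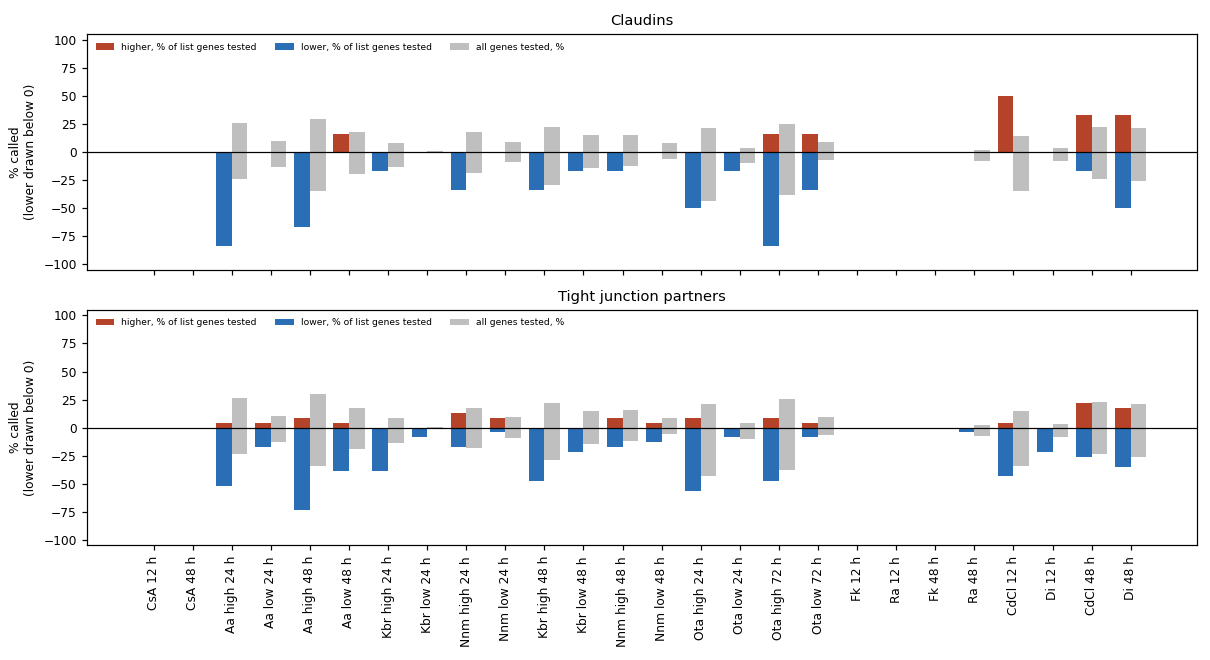
Percent of tested genes called at an adjusted p under 0.05 in each of the 26 comparisons, higher drawn above 0 and lower below it, for the 6 measured claudins (top) and the tight junction partners (bottom), in colour, beside all tested genes in grey. With high-dose Ota at 72 h the claudin bars stand for 5 lower and 1 higher, beside 37.9% and 25.3% of all genes, and the CsA, Fk and Ra comparisons have no claudin bar.

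CGN, cingulin, a plaque protein under the junction, was lower in 15 comparisons and higher in 0. With high-dose Kbr at 48 h it was under the background mark (2.78, against 6.05 in the controls), and with that level set to the mark it was at least 4.14-fold lower. CRB3, an apical polarity protein, was lower in 13 and higher in 1. It fell by 1.99 with high-dose Ota at 72 h and by 1.89 with high-dose Aa at 48 h, and rose by 0.74 with CdCl at 48 h. CDH1, E-cadherin, was lower in 8 (-3.32 with high-dose Ota at 72 h, from 9.05 to 5.74) and rose by 0.81 with CdCl at 48 h. CDH2, the cadherin typical of proximal tubule, was lower in 7 (-2.09 with high-dose Aa at 48 h) and higher in 3.

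Of 12 further claudins in the table, 3 were tested in most families. CLDN15, a cation pore claudin best known from the intestine, was higher in 7 and lower in 0, and went from 5.55 to 7.75 with high-dose Aa at 24 h (2.20, adjusted p = 5.002e-06). This ran against CLDN2, CLDN1 and CLDN16 in the same cultures. CLDN11, known from myelin and Sertoli cell junctions, was lower in 4 (-1.26 with high-dose Kbr at 48 h) and higher in 3 (0.68 with high-dose Ota at 24 h).

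Among regulators, TFAP2A, a transcription factor, was lower in 9 comparisons (-1.75 with high-dose Ota at 24 h, -1.54 with Di at 48 h) and higher in 1. EGFR, whose ligand was in the medium, was lower in 7 (-1.27 with high-dose Ota at 72 h) and higher in 2 (0.59 with Di at 48 h). These 2 genes do not stand for the list of regulators. Of 12 tested, CdCl at 48 h gave 8 higher and 2 lower (all genes 22.9% and 23.5%). Di at 48 h gave 6 higher and 3 lower (21.4% and 25.9%), and high-dose Aa at 48 h 5 higher and 6 lower (29.8% and 34.5%). Among proteases, the lysosomal CTSL was higher in 10 and lower in 0, up to 1.93 with Di at 48 h. MMP7, a secreted matrix protease, was higher in 5 (2.16 with high-dose Ota at 72 h) and lower in 3 (-1.21 with low-dose Kbr at 48 h).

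The genes whose 26 changes ran most like a member's were found among 10542 genes above background in at least 19 of 38 groups. The closest were NXN for CLDN1 (r = 0.912), POGLUT2 and EPHA4 for CLDN2 (0.876 and 0.87), LCN10 for CLDN3 (0.861), TSKU for CLDN4 (0.825), PLPP2 for CLDN12 (0.841) and BCKDHB for CLDN16 (0.841). PAWR and PPHLN1 followed for CLDN1, SGK1 for CLDN2, FBXL16 and GLG1 for CLDN3, FBXO42 and HIPK2 for CLDN4, AMN1 and MSANTD3 for CLDN12, and LAMA1 and QPRT for CLDN16. These r values describe 26 comparisons that share controls, normalization and, within a family, replicate numbers.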

How the data were processed

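RNA of HK-2 cultures (38 groups of 3) was measured on 1-colour Affymetrix arrays with 54675 probe sets. The deposited log2 values were made with GCRMA, per the submitters' processing notes, whose version is not given in the sources used here, and per the series' design text all arrays were normalized together. The values were used as deposited, with no further normalization. Arrays have no read depth, and their number (3 a group) limits precision. Probe sets with 1 gene symbol (41091) were kept; 1801 with several, 11721 without a symbol and 62 array controls were not used. A gene was read from its probe set with the highest mean, and tested in a control family if above log2 4 on at least 3 arrays. The families were fitted separately with limma 3.58.1 (R 4.3.3): a mean per group, all arrays of the family, eBayes, contrasts, and Benjamini-Hochberg adjustment over all genes of the comparison. The script was tested on simulated data. A "block" adds the replicate number to the fit.

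Same-numbered arrays deviated together in every pair with CsA (r 0.534 to 0.931, 6 pairs), Aa (0.28 to 0.537, 12 pairs) and Nnm and Kbr (0.139 to 0.673, 24 pairs). They did not with Ota (-0.0542 to 0.409), Fk and Ra (-0.176 to 0.76) or CdCl and Di (-0.274 to 0.16). The pairing comes from these correlations and the labels' replicate numbers, which name no shared day.

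Members, lists and tests were chosen with earlier results of these data known. Named besides the members are, from each list, the 2 genes called in most comparisons, and the 3 genes most like each member; COL1A1 and LUM were named after their values were seen. Alternatives tried were quantile normalization, other filters, other probe sets, a mean-variance trend, all arrays in 1 fit, only the compared arrays, the block, and leaving out each array. Some genes of the lists, CLDN22 among them, were not analysed here. Promoter sequences are from RefSeq (GRCh38.p14). Figures were drawn with matplotlib 3.10.9.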

Additional observations from a re-analysis of the deposited data

Results flagged for a closer look

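The difference between a treated culture and its control changed with time, by the limma interaction contrast, for 11 claudin values, each with 3 arrays in each of 4 groups. Values are the late minus the early difference from control. With Di they were a fitted -5.87 for CLDN2, whose 48 h arrays were under the background mark (-5.41 or lower with that level set to the mark), -1.49 for CLDN16, -0.836 for CLDN3, 1.24 for CLDN4 and 0.851 for CLDN12, in a comparison where 33.6% of genes were called. With CdCl they were -2.67 for CLDN2 and -0.998 for CLDN16 (30.4% of genes). With high-dose Ota they were 1.42 for CLDN1, 1.19 for CLDN12 and -2.86 for CLDN16 (53.4% of genes), and with low-dose Ota it was 1.96 for CLDN2 (6.3% of genes). Part of each value is the change of the controls over the same time. In the CdCl and Di controls CLDN2 fell by 1.01, CLDN16 rose by 2.43 and CLDN3 rose by 0.77. In the Ota controls CLDN2 fell by 1.65. CLDN3 in the Di cultures had means of 6.01 at 12 h and 5.94 at 48 h, so its value is largely the control rise. With the block, 3 further values passed in the Aa family: CLDN1 (-0.50) and CLDN3 (-0.78) with the high dose and CLDN12 (0.57) with the low dose.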

How the results depend on the processing

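Of the 41 calls against controls, 27 held in every alternative run in which the gene was tested. Of these, 7 are CLDN3 calls, which the run without marked probe sets could not test. The other 14 were lost in at least 1 run: 4 of CLDN2, 3 of CLDN3, 2 each of CLDN1, CLDN12 and CLDN16, and 1 of CLDN4. The count was 31 without probe sets marked as possibly cross-hybridising, which removes CLDN3, and 54 with the replicate block. Leaving out single arrays moved it between 39 and 45, the dose count (14) between 13 and 16, the count of changed responses (11) between 11 and 13, the control count (9) between 7 and 10 and the compound count (11) between 9 and 12. With the Nnm arrays numbered 2 left out, these counts were 49, 19, 13, 10 and 16, in the same order. In 1 fit of all arrays the dose, response, control and compound counts were 9, 5, 4 and 6, and the control count was 5 without a filter. Without marked probe sets the control and compound counts were 5 and 6. The cause of these shifts was not tested, beyond the loss of CLDN3. Other scales turned a sign where 1 side was called: CLDN1 was 0.335 with the mean of its probe sets and 0.746 with the second for CdCl at 12 h. For the CdCl and Di controls over time it was 0.279 and 0.646, and for the CdCl response over time -0.318 and -0.688. CLDN3 was 0.426 for high against low Ota at 24 h after quantile normalization. With the block the dose, response, control and compound counts were 17, 14, 10 and 15, and it lost only CLDN2 in the Fk and Ra controls (-2.05, block adjusted p = 0.05068). No share of all genes called with the block is given for these counts or for the 54. In the Ota, Fk and Ra, and CdCl and Di families the arrays share only a number, and the block added CLDN16 in the Ota controls (1.18, block adjusted p = 0.01051). Quantile normalization moved the median of all genes by 0.214 with high-dose Ota at 24 h and by 0.205 with Ra at 48 h.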
